A study of Mus musculus with 6 samples.

Results

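*Mt1*, *Mt2* and *Slc30a1*, 3 genes of 32285 counted, were followed in CD8 T cells of B16-OVA tumors and of the draining lymph node (LN). They were chosen by name, as the metallothioneins found in most tissues and the zinc exporter of the cell surface. The choice was made with earlier results of these data known, so their places among all genes below are a description only. Their unique molecular identifiers (UMIs, tags that count single RNA molecules) were read in 4 single-cell RNA libraries. Within tumors they were also read by the presence of a *Tcf7* or a *Havcr2* UMI. B16-OVA cells are mouse melanoma cells that make the model antigen ovalbumin. Control mice (CD8-Cre Rosa26Tomato) and CD8-IFNγRKO mice (CD8-Cre IFNgR1flox/flox Rosa26Tomato), young adults of both sexes, had the same Cre, driven in CD8 T cells, the same Tomato reporter and the same tumor, and differed in the floxed gene of the IFNγ receptor chain that binds the ligand. Cells positive for CD45, CD3, CD8 and Tomato were sorted at day 12, those of 3 mice were pooled, and each tissue and genotype gave 1 library. Nothing in the files ties a cell to a mouse. No test between genotypes was therefore possible, and every interval below is a 95% interval of counting error only.

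Metallothioneins are small proteins rich in cysteine that bind zinc and copper and buffer free metal in the cell. Their genes are switched on by the zinc-sensing factor MTF1, encoded by *Mtf1*, through metal response elements in the promoter, and also respond to glucocorticoids and oxidative stress. *Slc30a1* encodes ZnT1, which moves zinc out of the cell and is a known target of the same factor. In tumor-infiltrating T cells, metallothionein expression is known to accompany activation and dysfunction. *Tcf7* encodes TCF1, the factor that marks stem-like CD8 T cells, and *Havcr2* encodes the inhibitory receptor Tim-3, which marks exhausted ones.

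*Mt1* (ENSMUSG00000031765) lies at chr8:94178883-94180327, *Mt2* (ENSMUSG00000031762) at chr8:94172618-94173567 and *Slc30a1* (ENSMUSG00000037434) at chr1:191906697-191913248 of build GRCm38.p6, so that both metallothionein genes share a locus and the exporter does not. The promoter windows are shown because the 3 genes are known targets of 1 factor and yet moved differently here. All 3 symbols were found in the RefSeq promoter table of this build. Each sequence runs from 250 bases before to 30 bases after the annotated transcript start on the plus strand, and capitals mark the core of the metal response element, spelled TGCACNC or TGCGCNC and searched on both strands. The windows are chr8:94178839-94179118, chr8:94172368-94172647 and chr1:191906531-191906810. The transcript start of the promoter table lies inside the gene record for *Mt1* and *Slc30a1* and at its first base for *Mt2*, so that the positions below hold for that transcript.
Mt1: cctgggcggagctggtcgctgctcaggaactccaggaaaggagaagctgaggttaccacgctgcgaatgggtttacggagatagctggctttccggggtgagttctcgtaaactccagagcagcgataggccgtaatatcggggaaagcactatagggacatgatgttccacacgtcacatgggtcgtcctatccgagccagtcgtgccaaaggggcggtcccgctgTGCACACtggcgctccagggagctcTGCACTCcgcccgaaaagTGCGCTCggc
Mt2: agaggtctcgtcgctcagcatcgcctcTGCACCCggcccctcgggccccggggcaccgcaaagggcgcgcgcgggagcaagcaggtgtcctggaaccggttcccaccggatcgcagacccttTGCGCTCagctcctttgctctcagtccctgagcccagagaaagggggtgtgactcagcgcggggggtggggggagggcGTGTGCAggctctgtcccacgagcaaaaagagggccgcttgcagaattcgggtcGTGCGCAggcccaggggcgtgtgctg
Slc30a1: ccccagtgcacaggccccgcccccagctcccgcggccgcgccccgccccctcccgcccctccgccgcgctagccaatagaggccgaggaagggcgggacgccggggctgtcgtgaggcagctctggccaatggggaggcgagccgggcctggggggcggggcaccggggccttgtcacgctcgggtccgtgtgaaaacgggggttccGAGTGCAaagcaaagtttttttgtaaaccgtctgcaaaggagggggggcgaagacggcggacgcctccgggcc
In the full windows of 300 bases, *Mt1* held 3 such cores, which began 23 bases before and 2 and 20 bases after the start. *Mt2* held 4, which began 223, 128 and 50 bases before and 4 bases after it. *Slc30a1* held 2, 1 of them 43 bases before the start and the other 30 bases after it, in the bases not printed. Of 27025 promoters of the same length, 25.6% held at least 1 core, 7.11% at least 2, 2.0% at least 3 and 0.503% at least 4. The antioxidant element TGACNNNGC was found once each in *Mt2* and *Slc30a1*, and in 12.5% of all promoters. These are matches of letters and not measured binding.

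After filtering, 7100 control and 8633 CD8-IFNγRKO tumor cells and 6641 and 6731 LN cells were kept, with a median of 6307, 9399, 4051 and 3863 UMIs per cell. *Ifngr1*, the targeted gene, stood in tumors at 718 CPM (UMIs of a gene per 1000000 UMIs of the cells pooled) for control and 238 CPM for CD8-IFNγRKO mice, and in LN at 182 and 137 CPM. All 4 CD8 T cell markers (*Cd2*, *Cd3e*, *Cd8a* and *Cd8b1*) were between 441 and 1705 CPM in every library. Cells were sorted on CD3 and CD8 and kept only with a UMI of *Cd2*, *Cd8a* and *Cd8b1*, so these levels are no check of identity. The 8 macrophage markers summed to 18.3 and 12.0 CPM in the control and CD8-IFNγRKO tumor libraries and, with *Ms4a7* at 0 in both and *C1qa* and *C1qc* at 0 in the second, to 2.54 and 3.19 CPM in the LN libraries. The 4 melanoma markers summed to 3.25 and 2.30 CPM in the tumor libraries and to 0.200 and 0.485 CPM in the LN libraries, where *Tyrp1* was at 0. B cell and fibroblast markers were under 3 CPM in sum in every library. Between 183 and 215 kept cells of a library had a barcode that also occurred in another library. With those cells left out, the log2 ratio of *Mt1* between tumor and LN was 9.03 in control and 8.98 in CD8-IFNγRKO mice, against 9.02 and 9.0 with them.

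Both metallothionein genes were abundant in tumor T cells and nearly absent from LN T cells of the same mice. *Mt1* stood at 813 CPM (interval, 806 to 820) in the control tumor library and 1026 CPM (1019 to 1032) in the CD8-IFNγRKO tumor library, against 0.568 CPM (0.331 to 0.909; 17 UMIs) and 1.01 CPM (0.673 to 1.44; 29 UMIs) in the LN libraries. *Mt2* stood at 114 CPM (111 to 117) and 155 CPM (152 to 157) in the tumor libraries, was at 0 UMIs in the control LN library and had 2 UMIs in the CD8-IFNγRKO LN library. *Slc30a1* was low in all 4 libraries, at 19.4 CPM (18.3 to 20.6) in control tumors, 10.8 CPM (10.2 to 11.5) in CD8-IFNγRKO tumors, and 13.0 (11.7 to 14.4) and 11.7 CPM (10.5 to 13.0) in control and CD8-IFNγRKO LN. From high to low, *Mt1* was ordered CD8-IFNγRKO tumor, control tumor, CD8-IFNγRKO LN and control LN, and the intervals of the last 2 overlapped. For *Slc30a1* the order was control tumor, control LN, CD8-IFNγRKO LN and CD8-IFNγRKO tumor, and only the interval of the first overlapped none of the others. The variation between mice was not measured in any of them.

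**Figure D1:**
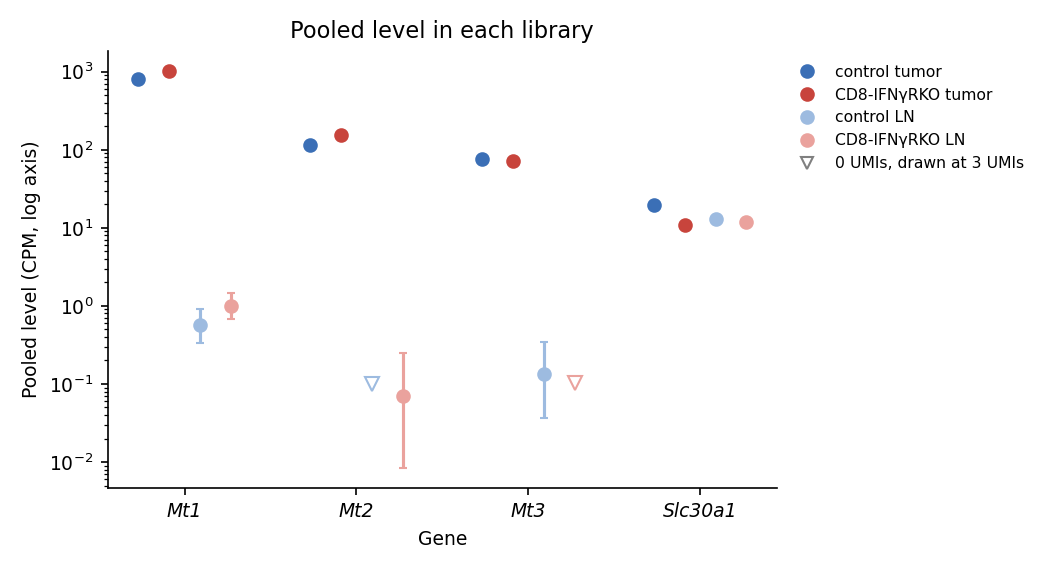
Pooled level in CPM on a log axis of *Mt1*, *Mt2*, the related gene *Mt3* and *Slc30a1* in the 4 libraries, 1 point per library with its 95% counting interval. A triangle marks a library with 0 UMIs, drawn at the level of 3 UMIs. *Mt1* falls from 813 and 1026 CPM in tumors to 0.568 and 1.01 CPM in LN, and *Slc30a1* stays between 10.8 and 19.4 CPM.

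Measured as a fold of CPM between tumor and LN, *Mt1* was 1432-fold (894 to 2458) higher in control and 1020-fold (710 to 1523) higher in CD8-IFNγRKO mice. On the log2 scale with 1 CPM added, the differences were 9.02 and 9.0, and 2 of 8221 and 1 of 8283 genes tested were further up. *Mt2* was at least 1136-fold higher in control mice, where the LN library had no UMI and 3 UMIs were taken as the floor, and 2234-fold higher (618 to 18449) in CD8-IFNγRKO mice, from 2 UMIs in LN. *Slc30a1* was 1.5-fold (1.33 to 1.68) higher in control tumors than in control LN and stood at 0.925 times (0.817 to 1.05) the LN level in CD8-IFNγRKO mice, where the sign of the log2 ratio varied with the processing (-0.35 to 0.39). Thus 2 of the 3 genes passed a 2-fold increase in each genotype, in a contrast in which 15.6% of all genes tested did so in control and 16.8% in CD8-IFNγRKO mice. Tumors were digested with enzymes before sorting and LN were only mashed, so that tissue and handling cannot be told apart. The macrophage and melanoma markers above also moved with the tissue. The 7 control tumor barcodes with macrophage markers held *Mt1* and *Mt2* together at 617 CPM (454 to 821), below the 927 CPM of the kept T cells. The 5 CD8-IFNγRKO tumor barcodes held 959 CPM (716 to 1257), an interval that includes the 1181 CPM of the kept T cells. The 3 in each library that passed the other filters held 701 CPM (488 to 974) in control and 991 CPM (736 to 1306) in CD8-IFNγRKO tumors. Both of these intervals include the level of the kept T cells.

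The share of cells with an *Mt1* UMI was 65.7% (64.6 to 66.8) of control and 67.9% (67.0 to 68.9) of CD8-IFNγRKO tumor cells, and 0.241% and 0.357% of LN cells. With cells cut down at random to 1600 UMIs each, the shares in tumors were 42.1% (40.9 to 43.3) and 42.9% (41.8 to 44). The corresponding thinned shares were 11.4% and 13.0% for *Mt2* and 3.19% and 1.92% for *Slc30a1*. For *Mt2* in control LN, 0 of 6641 cells held a UMI, which, with 3 cells taken as the limit, allows a share of up to 0.0452%. For *Mt1*, the lowest share in a class of tumor cells, described further on, was 13.2% before thinning. This was in CD8-IFNγRKO cells with a *Tcf7* and no *Havcr2* UMI, at a median of 4039.5 UMIs. On cells thinned and classed anew, the *Mt1* share in that class was 6.64%. The tumor libraries hold no cell type known to lack metallothioneins, and the part of free RNA in these shares was not measured.

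Compared between genotypes, *Mt1* and *Mt2* were somewhat higher, and *Slc30a1* lower, in CD8-IFNγRKO than in control tumors. Differences are log2 ratios of CPM with 1 CPM added. *Mt1* differed by 0.33 (0.32 to 0.35), *Mt2* by 0.44 (0.40 to 0.48) and their sum by 0.35 (0.33 to 0.36). Much of the CD8-IFNγRKO sum came from the 2 T cell clones with most cells, with 30077 and 21243 of 110907 UMIs, at 1676 and 1376 CPM. In control tumors the 2 clones with most cells held 7451 and 8898 of 55103 UMIs, at 934 and 1046 CPM. The part of these clones in the difference between genotypes was not tested. *Slc30a1* differed by -0.79 (-0.90 to -0.67), and 144 of 7719 genes tested were further down. None of the 3 genes passed 2-fold, as 0.842% of all genes tested did upward and 1.19% downward. In LN, *Slc30a1* differed by -0.14 (-0.34 to 0.06), and 0.0268% of all genes tested passed 2-fold downward, while *Mt1* differed by 0.36 (-0.04 to 0.71) on 17 and 29 UMIs. *Mt1* and *Mt2* were found in a similar proportion in both tumor libraries. As a ratio of UMIs, which mark 5′ ends and were not divided by transcript length, *Mt1* had 7.14 UMIs (6.96 to 7.32) for each *Mt2* UMI in control and 6.62 (6.51 to 6.74) in CD8-IFNγRKO tumors. The 2 genes are close relatives, and how reads that fit both were assigned was not checked.

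The higher metallothionein level in CD8-IFNγRKO tumors differed in sign between ranges of sequencing depth, whereas the lower *Slc30a1* level did not. Among cells of 4000 to 8000 UMIs, *Mt1* plus *Mt2* stood at 581 CPM in CD8-IFNγRKO and 727 CPM in control tumors, a log2 ratio of -0.32 (-0.37 to -0.28). From 2000 to 4000 UMIs the ratio was 0.49 (0.38 to 0.59), from 8000 to 16000 UMIs 0.19 (0.16 to 0.21), and from 16000 UMIs up 0.36 (0.34 to 0.38). Below 2000 UMIs it was 0.10 (-0.05 to 0.25). *Slc30a1* was lower in CD8-IFNγRKO cells in all 5 depth ranges, with log2 ratios from -0.39 to -0.89, and its interval lay below 0 in the 3 ranges from 4000 UMIs up. The CD8-IFNγRKO library also held more deep cells, with 1914 against 870 cells of 16000 UMIs or more. Within each library *Mt1* plus *Mt2* went from 366 to 1152 CPM in control and from 513 to 1481 CPM in CD8-IFNγRKO cells between the range of 2000 to 4000 UMIs and the deepest, and the shallowest cells held 703 and 754 CPM. The part of depth in the difference between genotypes was not tested further.

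**Figure D2:**
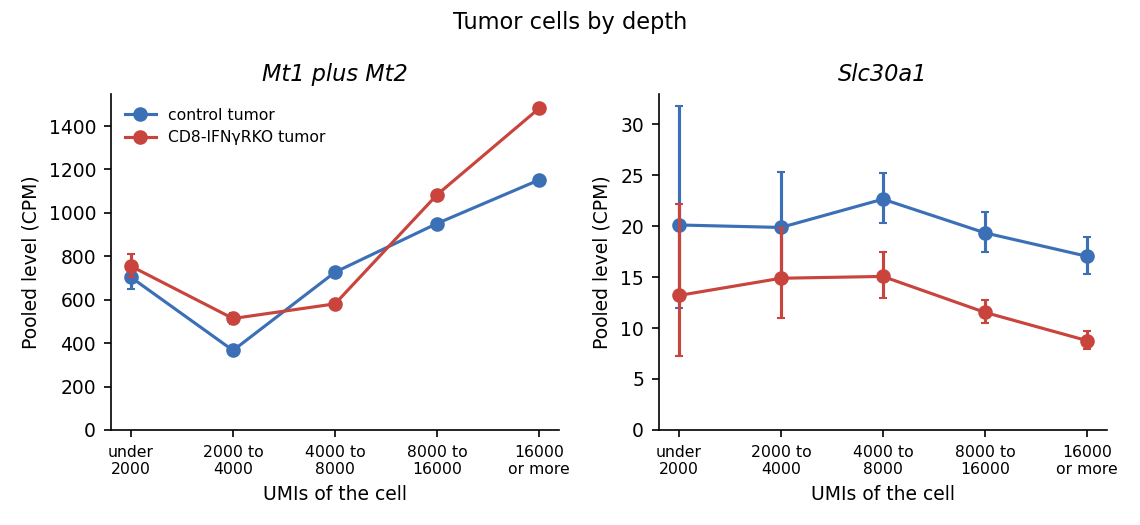
Pooled level in CPM of *Mt1* plus *Mt2* (left) and *Slc30a1* (right) in tumor cells split by their own number of UMIs, with 95% counting intervals, for the control and the CD8-IFNγRKO tumor library. The control library has the higher metallothionein level only in the range of 4000 to 8000 UMIs (727 against 581 CPM) and the higher *Slc30a1* level in all 5 ranges.

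Within tumors, metallothionein levels were lower in cells with *Tcf7* and higher in cells with *Havcr2*. In control tumors, the 372 cells with a *Tcf7* UMI held *Mt1* plus *Mt2* at 646 CPM and the other cells at 940 CPM, a log2 ratio of -0.54 (-0.61 to -0.47). In CD8-IFNγRKO tumors, 836 cells with a *Tcf7* UMI held 428 CPM and the others 1229 CPM, a ratio of -1.52 (-1.58 to -1.46). Of the cells with a *Tcf7* UMI, 113 in control and 164 in CD8-IFNγRKO tumors also had a *Havcr2* UMI. These held 1624 of the 1765 control and 2050 of the 2444 CD8-IFNγRKO UMIs of the sum in cells with *Tcf7*. The size of the difference by *Tcf7* also changed with thinning. On cells thinned to 1600 UMIs and classed anew, the ratios were -2.39 (-2.85 to -1.96) from 182 cells and -2.82 (-3.11 to -2.54) from 456 cells. As single genes, *Mt1* and *Mt2* fell past 2-fold with *Tcf7* in CD8-IFNγRKO tumors, where 1.32% of all genes tested did so, and neither passed it in control tumors, where 1.19% did. On thinned cells both passed it in control tumors too, with ratios of -2.27 for *Mt1* and -3.61 for *Mt2*, so that the libraries did not part there. The *Mt2* value rests on 2 UMIs in cells with *Tcf7*. The share of all genes past 2-fold was computed on unthinned cells only, so none stands beside the thinned values here and below. By *Havcr2* the order was reversed. The 4977 control cells with a *Havcr2* UMI held 1005 CPM against 486 CPM in the others, a ratio of 1.05 (1.00 to 1.09), and the 5849 CD8-IFNγRKO cells 1300 CPM against 615 CPM, a ratio of 1.08 (1.05 to 1.11). *Mt1* and *Mt2* both passed a 2-fold increase with *Havcr2* in both libraries, where 0.247% of all genes tested in control and 0.285% in CD8-IFNγRKO tumors did. Cells with a *Havcr2* UMI were deeper, at a median of 7967 against 3657 UMIs in control and 11991 against 4488.5 in CD8-IFNγRKO tumors. On thinned cells the *Havcr2* ratios of the sum were smaller, at 0.35 (0.28 to 0.41) and 0.60 (0.55 to 0.65). There neither gene passed 2-fold in either library, and *Mt2* in control tumors was at 0.13 (-0.06 to 0.32). Thinning also changed the classes. A *Havcr2* UMI was left in 34.9% of control and 26.0% of CD8-IFNγRKO cells, against 70.1% and 67.8% before, so that cells that lost theirs stood among those without. The part of this in the smaller ratios was not tested.

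*Slc30a1* stood at 23.4 CPM in control cells with a *Tcf7* UMI and 19.2 CPM in those without (ratio 0.27, -0.10 to 0.62), and at 11.6 and 10.8 CPM in CD8-IFNγRKO cells (0.09, -0.26 to 0.43). With *Havcr2* its ratio was -0.17 (-0.38 to 0.05) in control and -0.22 (-0.43 to -0.01) in CD8-IFNγRKO tumors. None of these 4 ratios reached 2-fold. Of all genes tested, 2.27% in control and 3.39% in CD8-IFNγRKO tumors passed it upward with *Tcf7*. With *Havcr2*, 0.742% and 1.27% passed it downward, so that falling short of 2-fold does not set *Slc30a1* apart. The intervals leave room for differences of the sizes given.

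Taking both genes at once separated the cells further. Cells with a *Tcf7* and no *Havcr2* UMI had the lowest metallothionein level of the 4 classes, at 112 CPM (93.9 to 132; 259 cells) in control and 115 CPM (104 to 127; 672 cells) in CD8-IFNγRKO tumors. The log2 ratio between genotypes was 0.04 (-0.24 to 0.33). This level was still far above that of LN cells, 0.568 and 1.07 CPM for the sum. Cells with neither UMI held 547 and 747 CPM, and cells with a *Havcr2* and no *Tcf7* UMI 1002 and 1312 CPM, control before CD8-IFNγRKO, with ratios between genotypes of 0.45 (0.40 to 0.50) and 0.39 (0.37 to 0.40). The few cells with both UMIs, 113 and 164, held 1106 and 902 CPM, a ratio of -0.29 (-0.39 to -0.20). These were the deepest cells, at a median of 10427 and 12314 UMIs, and doublets among them were not tested. On thinned cells only 14 and 19 fell in this class, and the ratio had the other sign, at 1.18 (0.21 to 2.25). *Slc30a1* was lower in CD8-IFNγRKO cells in all 4 classes, at 13.1 against 25.3, 12.2 against 20.9, 10.5 against 19.0 and 9.24 against 21.8 CPM in the order just given, with ratios from -0.73 to -1.16 and every interval below 0. With cells thinned and classed anew, the cells with *Tcf7* and no *Havcr2* UMI again held the sum at a low level, 115 CPM (78.4 to 164) in control and 93.0 CPM (71.7 to 118) in CD8-IFNγRKO tumors. There the *Slc30a1* ratio between genotypes was -0.61 (-2.11 to 1.02), from 6 control and 10 CD8-IFNγRKO UMIs. It was -0.51 (-0.87 to -0.16) in thinned cells with neither UMI and -1.12 (-1.68 to -0.56) in those with *Havcr2* alone. Thinned cells with both held 1 control and 0 CD8-IFNγRKO UMIs of *Slc30a1*, too few for a ratio.

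**Figure D3:**
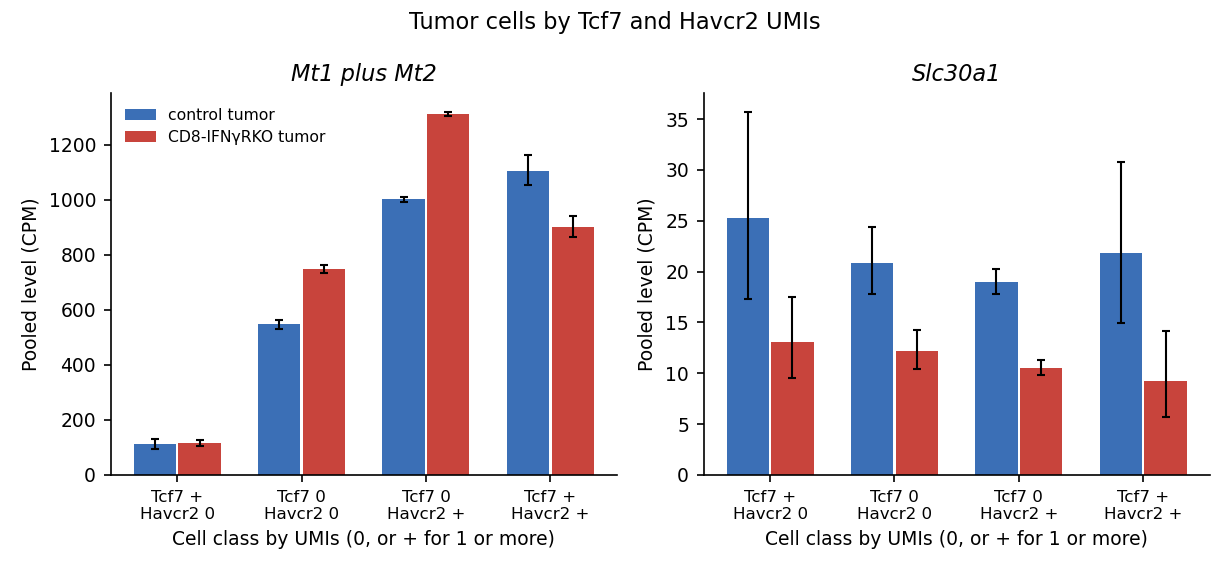
Pooled level in CPM of *Mt1* plus *Mt2* (left) and *Slc30a1* (right) in tumor cells classed by 0 or at least 1 UMI of *Tcf7* and *Havcr2*, with 95% counting intervals, for both tumor libraries. The metallothionein bars are lowest, near 112 and 115 CPM, in cells with *Tcf7* alone, and the *Slc30a1* bars of the CD8-IFNγRKO library are below those of the control library in all 4 classes.

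The tumor cells were also split by 5 other genes. *Il7r*, the receptor chain for interleukin 7, went with a higher sum of *Mt1* and *Mt2*, with ratios of 0.39 (0.37 to 0.42) in control and 0.73 (0.72 to 0.75) in CD8-IFNγRKO tumors, but on thinned cells the control ratio was -0.46 (-0.59 to -0.34) and the other 0.15 (0.06 to 0.24). Cells with a UMI of the cycling gene *Mki67* had ratios of 0.28 (0.26 to 0.31) in control and -0.05 (-0.07 to -0.03) in CD8-IFNγRKO tumors, and thinned ratios of 0.20 and 0.15. *Slc30a1* was lower in cells with a *Mki67* UMI in both libraries, by ratios of -0.39 (-0.56 to -0.23) and -0.42 (-0.59 to -0.26). On thinned cells its ratios were -0.44 (-1.24 to 0.28) and -0.40 (-1.04 to 0.21), both across 0, from 15 and 22 UMIs in cells with *Mki67*. Cells with a UMI of the heat shock gene *Hspa1a* had a higher sum in control tumors (0.51, 0.48 to 0.54) and a lower one in CD8-IFNγRKO tumors (-0.11, -0.12 to -0.09), and the signs were the same on thinned cells, at 0.50 and -0.20. *Pdcd1* (PD-1) and *Entpd1* (CD39), other genes of exhausted cells, went with a higher sum, by ratios of 1.07 and 1.52 for *Pdcd1* and 0.52 and 0.74 for *Entpd1*, control first. On thinned cells the *Pdcd1* ratios had intervals across 0 (0.06, -0.01 to 0.13 in control tumors), and the *Entpd1* ratios were 0.25 and 0.37. Thinning left a *Pdcd1* UMI in 67.7% of control and 57.8% of CD8-IFNγRKO cells, against 88.2% and 88.1% before. For *Entpd1* the shares were 17.0% and 15.6%, against 50.5% and 55.9%. *Hspa1a* itself was at 188 CPM in the control and 698 CPM in the CD8-IFNγRKO tumor library.

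*Mt1* was spread very unevenly over tumor cells. At 1600 UMIs per cell, control tumor cells held a mean of 1.07 *Mt1* UMIs, 57.9% held none where a Poisson spread of that mean would leave 34.3% without, and 1 cell held 59. The variance of *Mt1* was 5.20 times its mean in control and 6.16 times in CD8-IFNγRKO tumors. The medians over genes were 1.01 in both, and 23 of 8456 and 13 of 8527 genes had a higher value. These genes had thinned means of at least 0.01 UMIs. By level, *Mt1* ranked 192 in the control and 152 in the CD8-IFNγRKO tumor library, so most of them stood below it. Genes of a like level were not compared alone. In the control library the 10% of cells with most *Mt1* held 55.9% of its UMIs, and in the CD8-IFNγRKO library 58.6%. *Slc30a1*, at thinned means of 0.033 and 0.020 UMIs, was too low for its spread to be read. The genotypes were alike in the share of cells with any *Mt1* and parted among the cells with most. At least 10 *Mt1* UMIs were found in 69 of 6399 thinned control cells (1.08%) and in 192 of 8355 CD8-IFNγRKO cells (2.30%). In LN no thinned cell held more than 1.

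**Figure D4:**
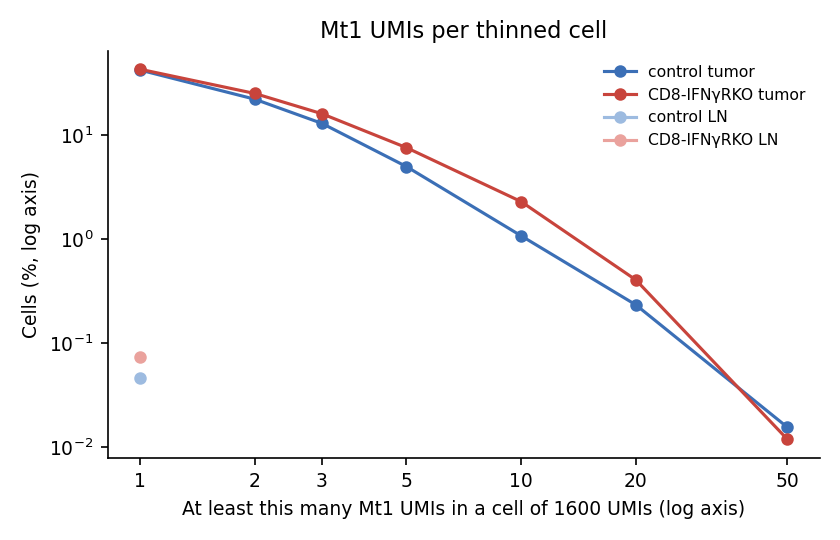
Share of cells, thinned to 1600 UMIs each, with at least the number of *Mt1* UMIs on the x axis, both axes on a log scale, for the 4 libraries. The tumor curves start together at 42.1% and 42.9% and are 1.08% and 2.30% at 10 UMIs, and the LN libraries have single points at 0.0468% and 0.0747%.

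The 2 metallothionein genes went together from cell to cell in both tumor libraries. Of thinned control cells with an *Mt1* UMI, 20.3% also held an *Mt2* UMI, against 4.97% of those without, and in CD8-IFNγRKO tumors the shares were 24.2% and 4.55%. A *Slc30a1* UMI was found in 3.86% of control cells with and 2.70% of those without *Mt1*, and in 1.79% and 2.01% of CD8-IFNγRKO cells. As a log2 ratio of *Slc30a1* levels in cells with over cells without *Mt1*, this was 0.50 (0.12 to 0.89) in control tumors and -0.15 (-0.58 to 0.28) in CD8-IFNγRKO tumors. When thinned cells were ordered by their *Mt1* UMIs, *Mt2* rose from 33.8 CPM in control cells with none to 547 CPM in those with 5 or more, and from 32.4 to 715 CPM in CD8-IFNγRKO cells. Over the same steps *Tcf7* fell from 42.0 CPM to 0 UMIs among 319 control cells, and from 81.9 to 5.92 CPM in CD8-IFNγRKO cells. *Havcr2* rose from 277 to 355 CPM and from 172 to 299 CPM. *Slc30a1* was 17.2 and 27.4 CPM at the 2 ends in control cells, from 102 and 14 UMIs, and 12.8 and 15.8 CPM in CD8-IFNγRKO cells, from 98 and 16 UMIs. Median depth before thinning also rose along these steps, from 6094 to 9114 UMIs and from 8393 to 13199 UMIs.

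T cell receptor sequences assigned 4283 control and 5936 CD8-IFNγRKO tumor cells to clones, and the clones differed widely in metallothionein level. Among the 10 clones with most cells, *Mt1* plus *Mt2* ran from 438 to 1232 CPM in control tumors, a 2.81-fold range, and from 227 to 1676 CPM in CD8-IFNγRKO tumors, a 7.39-fold range, with medians of 721 and 990 CPM. The CD8-IFNγRKO clone at 227 CPM was also the shallowest of these 10 in its library, at a median of 3211 UMIs per cell. *Slc30a1* ran from 12.9 to 22.6 CPM and from 8.70 to 17.6 CPM over the same clones, with medians of 19.5 and 11.6 CPM. Pooled together, clones of a single cell held *Mt1* plus *Mt2* at 104 CPM (84.2 to 127; 183 cells) in control and 29.8 CPM (22.2 to 39.0; 364 cells) in CD8-IFNγRKO tumors, against 962 and 1327 CPM for the 10 largest clones. A *Tcf7* UMI was found in 62.8% and 78.3% of these single cells and in 1.02% and 2.32% of cells of the large clones. For *Havcr2* the shares were 13.1% and 3.85% against 77.3% and 77.6%. The single cells were also shallower, at a median of 4039 and 3997.5 UMIs against 6472 and 10675.5. The part of these in the metallothionein levels was not tested. *Slc30a1* in the single cells was at 18.6 CPM (10.9 to 29.8) and 11.4 CPM (6.99 to 17.7), within the range of the large clones. Clones are not replicates of a genotype, and which mouse a clone came from is not known.

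**Figure D5:**
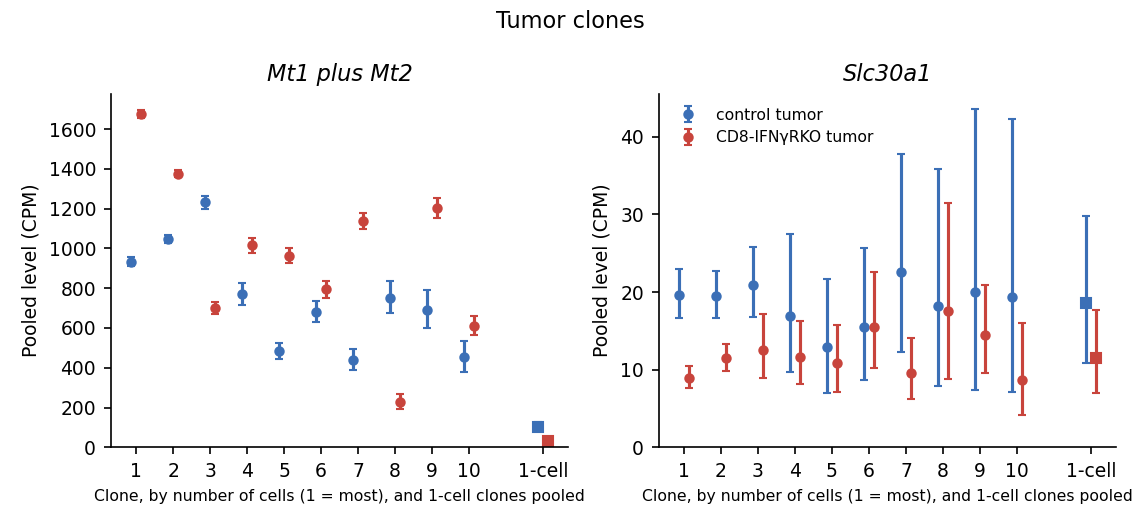
Pooled level in CPM of *Mt1* plus *Mt2* (left) and *Slc30a1* (right) in the 10 clones with most cells of each tumor library, in order of size, and in all clones of 1 cell together (squares), with 95% counting intervals. *Mt1* plus *Mt2* is between 227 and 1676 CPM in the large clones and at 104 and 29.8 CPM in the squares.

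The genes most like *Mt1* were looked for in 2 ways, both as a description. Among genes of at least 50 CPM in both tumor libraries, those with the largest increase in thinned cells with an *Mt1* UMI over cells with none, by the lower of the 2 libraries, were *Mt2* (log2 ratios 2.32 in control and 2.84 in CD8-IFNγRKO tumors), *Gzmc* (1.54 and 2.07), *Gzmf* (1.26 and 2.20), *Mt3* (1.09 and 1.16), *Il1r2* (0.86 and 1.55), *Serpinb9b* (0.78 and 1.18), *Spp1* (0.59 and 0.65) and *Serpine2* (0.57 and 0.72). *Gzmc* and *Gzmf* encode granzymes, proteases of the cytotoxic granule, and *Il1r2* a decoy receptor for interleukin 1. The list for *Mt2* was led by *Mt1* (2.07 and 2.34) and *Gzmf* (0.94 and 1.47), followed by *Ifitm2*, *Bnip3*, *Il1r2*, *Gzmc*, *Mt3* and *H1f0*. *Slc30a1* had a UMI in only 204 and 160 thinned cells. Its leading genes were *Emb*, *Acaa1a*, *Csnk2a1* and *Mapk14*, at ratios from 0.48 to 0.73. Of these only the intervals of *Emb* lay above 0 in both libraries. *Emb* led 2687 ranked genes by these same ratios, so its intervals are no test. Over 10 groups of cells (both LN libraries and the 4 classes of each tumor library), genes with the highest Pearson r with *Mt1* on the log2 scale included *Lgals1*, *Plp2*, *Tnfrsf9* and *Vps29*, each above 0.996. The 10 groups share 4 libraries, and this measure is set largely by the distance of LN from tumor. *Mt2* had an r of 0.99 with *Mt1* by this measure and *Slc30a1* one of 0.16. The 5 genes nearest to *Slc30a1* were *Tcf25* (0.95), *Cirbp*, *Uqcrh*, *Upf3a* and *Ndel1* (0.92).

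Among other genes that handle metal, *Mt3* was likewise found in tumors and hardly in LN. *Mt3*, best known from the brain, stood at 75.5 and 71.9 CPM in control and CD8-IFNγRKO tumors, had 4 and 0 UMIs in the LN libraries, and differed between tumor genotypes by -0.07 (-0.12 to -0.01). *Mt4*, known from squamous epithelia, had 0 UMIs in every library. *Mtf1* itself was alike in the tumor genotypes, at 30.3 CPM in control and 29.4 CPM in CD8-IFNγRKO tumors. It was higher in tumors than in the LN libraries, where it stood at 20.8 and 23.9 CPM. The log2 ratios of tumor over LN were 0.52 in control and 0.29 in CD8-IFNγRKO mice. Of 10 zinc exporter genes, 5 were high enough to be tested between tumor genotypes, none passed 2-fold, and their log2 ratios ran from -0.79, that of *Slc30a1*, to 0.04. The other 4, *Slc30a5*, *Slc30a6*, *Slc30a7* and *Slc30a9*, were at 13.2 to 36.9 CPM in both tumor libraries. Of 14 zinc importer genes, 7 were tested between tumor genotypes and none passed 2-fold. Between tumor and LN, 1 importer passed 2-fold in each genotype, *Slc39a4*, 1 of 8 tested in control and 1 of 6 in CD8-IFNγRKO mice beside the 15.6% and 16.8% of all genes given above, at 12.1 against 2.27 CPM in control and 11.7 against 2.81 CPM in CD8-IFNγRKO mice.

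Some copper, iron and redox genes were also higher in tumors, and some iron and redox genes were lower. Past 2-fold, 2 of 5 copper genes tested were higher and 0 lower in each genotype. Of 5 iron genes, 1 was higher and 1 lower in control mice, and 2 and 1 in CD8-IFNγRKO mice. Of 8 oxidative stress genes, 2 were higher and 1 lower in control mice, and 3 and 2 in CD8-IFNγRKO mice. Of all genes tested, 15.6% were higher and 10.5% lower in control mice, and 16.8% and 12.3% in CD8-IFNγRKO mice. With 5 or 8 genes tested in a list, these counts do not set the copper, iron and oxidative stress lists apart from all genes. *Cox17*, a copper chaperone for cytochrome oxidase, stood at 588 and 643 CPM in the tumor libraries against 130 and 126 CPM in LN, and *Slc31a1*, the copper importer, at 15.9 and 19.1 against 7.05 and 6.76 CPM, control before CD8-IFNγRKO. *Hmox1*, which breaks down heme, was at 12.1 and 15.4 CPM in the tumor and 1.00 and 0.693 CPM in the LN libraries. Of 8 oxidative stress genes tested between tumor genotypes, 1 passed 2-fold downward, as 1.19% of all genes did, *Srxn1*, which reduces peroxiredoxins, at 24.2 CPM in control and 10.2 CPM in CD8-IFNγRKO tumors and 0 UMIs in both LN libraries. *Txn1*, which encodes thioredoxin, was at 866 and 973 CPM in the tumor and 120 and 112 CPM in the LN libraries. Of 7 glucocorticoid response genes tested, 3 were lower in tumor than in LN past 2-fold in each genotype, *Tsc22d3*, *Sgk1* and *Dusp1*, where 10.5% of all genes tested in control and 12.3% in CD8-IFNγRKO mice were. *Tsc22d3*, an early glucocorticoid target, was at 135 and 137 CPM in the tumor and 571 and 676 CPM in the LN libraries. The median log2 ratio between tumor genotypes was 0.33 over the 3 metallothionein genes tested, -0.06 over the zinc exporters, -0.04 over the zinc importers, -0.07 over the copper list, -0.10 over the iron list, 0.04 over the glucocorticoid list, 0.19 over the oxidative stress list and 0.92 over 8 heat shock genes, of which 4 passed 2-fold upward where 0.842% of all genes did, beside a median of 0.02 over all genes tested. The lists were chosen with earlier results of these data known, so the heat shock count beside the share of all genes is a description and not a test. In LN no gene of these lists passed 2-fold between genotypes, as 0.0268% of all genes did in each direction. The heat shock genes were nonetheless higher in CD8-IFNγRKO LN too. All 7 tested there had log2 ratios above 0, with a median of 0.52 and a highest of 0.66, beside a median of 0.03 over all genes.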

How the data were processed

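The data are 4 single-cell RNA libraries of sorted CD8 T cells and 2 TCR libraries of the tumors. Per the submitters' processing notes, reads were mapped to mm10 with Cell Ranger 6.0.0. The authors deposited UMI counts for every gene and called barcode, not normalized. For the TCR libraries, the authors deposited filtered contigs with counts of reads and UMIs. The 5′ kit counts each molecule once, so that counts were not divided by length. Reads of close relatives such as *Mt1* and *Mt2* were assigned by that software.

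Matrices were handled in pandas 2.3.3, scipy 1.17.1 and numpy 2.4.6 under Python 3.11.15 and plotted with matplotlib 3.10.9. A cell was kept if it had 200 to 6000 genes, mitochondrial UMIs of 3% or less, no single gene over 20% and at least 1 UMI of all of *Cd2*, *Cd8a* and *Cd8b1*, and 3 cells of each tumor library with at least 4 of 8 macrophage markers and 10 of their UMIs were removed. No doublet caller was run. The libraries held 28841136 to 93945200 UMIs after filtering. Groups came from the sample titles. Pooled CPM was a gene's share of all UMIs of a group of cells, and ratios were log2 values with 1 CPM added. Intervals are exact at 95%: Poisson for a level, Clopper-Pearson for a share of cells, and binomial given the sum for a ratio. The binomial interval of a ratio, without the added CPM, was tried on simulated Poisson counts. Such counts hold no extra spread between cells, so this does not show that the intervals hold for a gene as uneven as *Mt1*. All intervals cover counting error only, since a group is 1 library. A gene was tested between 2 groups where it had at least 10 CPM in either and 100 UMIs over both, and called past 2-fold. Shares of cells and splits by another gene were repeated on cells thinned to 1600 UMIs, which left out 701 control and 278 CD8-IFNγRKO tumor cells and 237 and 41 LN cells. A clone is a set of cells with 1 alpha and beta pair of V gene, J gene and CDR3 nucleotide sequence. Promoters on chromosome 18 were left out of the motif search.

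Genes named are the 3 members, the genes of fixed lists on metal, redox, glucocorticoid and heat shock responses, the 8 genes that rose most with each member in both tumor libraries, and the 5 with the highest correlation over 10 groups with *Mt1* and with *Slc30a1*. Some results covered by these rules are not reported here. The members and lists were chosen with earlier results of these data known. In all, 9 alternatives were computed for 8 comparisons.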

Additional observations from a re-analysis of the deposited data

Results flagged for a closer look

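Several results had opposite signs in groups under the same contrast, with a counting interval off 0 on both sides. The differences between those groups were not tested, since each rests on 1 library per genotype. The counting intervals do not cover the uneven spread of *Mt1* over cells and clones, so a small ratio with an interval off 0 is not shown to differ from 0. For the sum of *Mt1* and *Mt2*, the log2 ratio of cells with over cells without a *Mki67* UMI was 0.28 in control and -0.052 in CD8-IFNγRKO tumors (0.20 and 0.15 on thinned cells). The same ratio by *Hspa1a* was 0.51 in control and -0.11 in CD8-IFNγRKO tumors. Between genotypes, the log2 ratio of CD8-IFNγRKO over control for the sum was 0.45 in cells with neither a *Tcf7* nor a *Havcr2* UMI and 0.39 in cells with *Havcr2* alone, but -0.29 in cells with both. On thinned cells the ratio in cells with both was 1.18 (0.21 to 2.25), of the other sign, from few cells. By depth, that ratio was 0.49 in cells of 2000 to 4000 UMIs, -0.32 from 4000 to 8000, 0.19 from 8000 to 16000 and 0.36 from 16000 UMIs up. For *Slc30a1*, no such change of sign with intervals off 0 was found between classes or depth ranges.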

How the results depend on the processing

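The 8 comparisons were recomputed for *Mt1*, *Mt2*, their sum and *Slc30a1* under 9 alternatives each, 288 values in all, of which 277 kept their direction. The 4 values that reversed from an interval off 0 all came from cells of 3000 to 9000 UMIs: between tumor genotypes the sum then had a log2 ratio of -0.25, *Mt1* -0.27 and *Mt2* -0.13, and *Slc30a1* by *Havcr2* in CD8-IFNγRKO tumors 0.16. The cause was not tested. In the same cells, the sum by *Tcf7* was -2.57 in control and -3.56 in CD8-IFNγRKO tumors, by *Havcr2* 0.70 and 1.27, and between tumor and LN 8.88 and 8.27. Thinning to 1600 UMIs gave 0.31 between tumor genotypes, -2.39 and -2.82 by *Tcf7*, and 0.35 and 0.60 by *Havcr2*. The mean of single-cell CPM gave 0.30, -1.30 and -2.09, and 0.87 and 1.25, and leaving out the deepest 8% of cells 0.40, -1.10 and -1.85, and 0.93 and 1.18, in the same order. All deposited barcodes gave -0.91 and -1.74 by *Tcf7* and 1.00 and 1.02 by *Havcr2*. A library size without ribosomal, mitochondrial, TCR and heat shock genes gave -0.44 and -1.42 by *Tcf7* and 1.05 by *Havcr2* in CD8-IFNγRKO tumors, and moved the median of all genes between tumor and LN by -0.28 in control and -0.26 in CD8-IFNγRKO mice. Adding 10 CPM gave 6.47 and 6.75 between tumor and LN. *Slc30a1* between tumor genotypes stayed between -0.80 and -0.50 under every alternative. No paired analysis was possible because each group is 1 library. In LN, 17 and 29 *Mt1* UMIs limit any comparison of genotypes, and free RNA and variation between mice were not measured.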
